A study of Homo sapiens with 9 samples.

Results

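Plakins are very large proteins that tie the filaments of the cell to each other and to the membrane. The 6 plakin genes described here are PPL (periplakin), EVPL (envoplakin), DSP (desmoplakin), PLEC (plectin), DST (dystonin) and MACF1 (microtubule-actin crosslinking factor). They were found by symbol, 1 feature for each gene, among the 56252 features that the libraries list, and 31080 reference genes remained after the features of one gene were summed. PPL was chosen for its strong rise in these libraries, so its values against scrambled siRNA are given as a description without a test, and the other 5 genes were chosen by family. Of the 6 genes, 6 passed the filter on low values.

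The study asked how loss of Cyclin K changes gene expression in lung cancer cells. A549 cells, a human lung cancer line, were transfected with scrambled siRNA (siCtrl in the labels), siCyclin K#1 or siCyclin K#2 (hereafter K#1 and K#2), each at 50 nM for 48 h. Total RNA gave 9 sequencing libraries, 3 for each siRNA. The culture medium is RPMI-1640 in the labels (spelled PRMI-1640) and DMEM in the methods, and no group carries another treatment. The labels do not say whether the 3 libraries of a group came from separate cultures, so the p-values measure only the spread between these libraries. Transient transfection of one cell line is the whole model.

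Periplakin and envoplakin bind each other and form the scaffold on which squamous cells such as skin keratinocytes build the cornified envelope, a protein shell under the membrane. Desmoplakin fastens keratin filaments to desmosomes, the junctions that rivet neighbouring epithelial cells together. Plectin and the epithelial form of dystonin fasten keratins to hemidesmosomes at the base of the cell. Long forms of dystonin and MACF1 also carry spectrin repeats and microtubule- and actin-binding regions, and are called spectraplakins.

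The values are FPKM, fragments scaled to gene length and library depth. The length that turned them into whole reads is that of all annotated exons of a gene joined. It is 42341 bases for DST, 40739 for MACF1 and 16991 for PLEC, whose principal transcripts have 17756, 24319 and 15249 nucleotides. Levels of different genes can thus be set side by side only roughly, and those of DST and MACF1 may be understated against PLEC. Steps in the low values gave an estimated 31333616 to 33768051 reads per library, and 93.97% to 94.69% of the values under 200 reads were whole reads within 0.05. CCNK, the target of the siRNAs, had 6.90 to 7.10 FPKM with scrambled siRNA, 0.720 to 0.891 with K#1 and 0.802 to 0.920 with K#2. Its log2 fold changes were -2.97 and -2.92 for the siRNAs in that order (adjusted p = 7.9e-08 and 2.3e-07 from limma). Of the simple epithelium markers, KRT8 and KRT18 were high and EPCAM was at a mean of 0.0408 FPKM with scrambled siRNA and 0 in 1 library. CDH1 was at 1.64, 3.88 and 1.71 FPKM on average with scrambled siRNA, K#1 and K#2. Its log2 fold change was 1.17 with K#1 (adjusted p = 0.0043 from limma) and 0.02 with K#2 (adjusted p = 0.96). The list summed to 132 to 152, 160 to 187 and 186 to 193 FPKM with scrambled siRNA, K#1 and K#2. Of the squamous markers, KRT5 was at 0 in 8 of 9 libraries, and the list summed to 0.062 to 0.131, 0.25 to 0.273 and 0.0606 to 0.0842 FPKM in the same order. Nearly all of that sum was TP63, at 0.092, 0.258 and 0.0691 FPKM on average. TP63 rose by 0.91 on the log2 scale with K#1 (adjusted p = 0.01 from limma) and was at -0.17 with K#2 (adjusted p = 0.62). Between the siRNAs it differed by 1.08 (adjusted p = 0.0071). TP63 passed the filter on low values only through the K#1 libraries, so these p-values are no support for a rise. Summed fibroblast markers were at 1.90 to 2.30, 13.8 to 14.8 and 3.22 to 3.43 FPKM, nearly all of it COL1A1, while COL1A2 was at 0 in 8 libraries. Blood markers summed to 30.0 to 30.7, 31.0 to 33.7 and 37.0 to 39.0 FPKM, nearly all of it CD68, with PTPRC at 0 in 7 libraries. KRT14, KRT6A, SFTPA1 and HBB, also on these lists, were not analysed here. Alveolar type 2 markers summed to at most 0.155 FPKM, with SFTPD at 0 in 7 libraries, and endothelial markers to at most 0.0445 FPKM, with PECAM1 at 0 in 8. The part of these markers in the plakin results was not tested, and in bulk RNA more cells of one type cannot be told apart from more RNA per cell.

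PPL was the least abundant of the 6 plakins with scrambled siRNA, and was higher with both Cyclin K siRNAs. It lies on the minus strand of chromosome 16 of GRCh38, from 4882507 to 4960741, and its transcript PPL-201 has 22 exons, 6238 nucleotides and 5268 coding nucleotides. With scrambled siRNA the 3 libraries had 0.254, 0.196 and 0.261 FPKM, from 66, 48 and 65 reads. With K#1 they had 4.52, 4.70 and 4.68 FPKM, from 1125, 1133 and 1186 reads. With K#2 they had 2.05, 2.27 and 2.35 FPKM, from 506, 579 and 575 reads. Both groups of Cyclin K libraries stood clear of the scrambled ones and of each other. The mean FPKM was 0.237 ± 0.0356 (SD, n = 3) with scrambled siRNA, and it was 19.6 times that with K#1 and 9.37 times that with K#2. On the log2(FPKM + 0.1) scale, which understates changes from such low levels, the differences were 3.82 and 2.79, and 3.30 over both siRNAs. With a pseudocount of 1 in place of 0.1 the last of these was 1.78. These contrasts are the ones on which PPL was picked.

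PPL stood higher with K#1 than with K#2. Set against each other without the scrambled libraries, the siRNAs differed by a log2 fold change of 1.03 for PPL (standard error 0.11, adjusted p = 0.00014 from limma, 95% interval 0.79 to 1.27). Each of the 3 K#1 libraries was above each of the 3 K#2 libraries, and 3 libraries against 3 cannot reach an exact p below 0.1. CCNK itself differed by a log2 fold change of -0.06 between the siRNAs (adjusted p = 0.73 from limma).

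EVPL, whose product pairs with periplakin, rose about as much with either siRNA. It lies on the minus strand of chromosome 17 from 76004502 to 76027452, a span of 23.0 kb, and EVPL-201 has 22 exons and 6099 coding nucleotides. The scrambled libraries had 3.51, 3.93 and 3.34 FPKM. Those with K#1 had 6.74, 6.73 and 7.25 FPKM, and those with K#2 had 7.18, 7.35 and 6.75 FPKM. The 6 Cyclin K libraries were thus all above the 3 scrambled ones, and the libraries of the siRNAs overlapped. The log2 fold change was 0.93 with K#1 (adjusted p = 9.6e-06 from limma) and 0.96 with K#2 (adjusted p = 1.3e-05). Over both siRNAs it was 0.94 (standard error 0.077, adjusted p = 2.2e-05), and the exact two-sided permutation test gave p = 0.0119, the smallest it can give with 6 libraries against 3. The difference between the siRNAs was -0.04 with a 95% interval of -0.20 to 0.13 (adjusted p = 0.75), so a difference of that size in either direction remains possible. The 3′ end of EVPL overlaps CDK3 on the other strand by 1498 bases. The strand setting of the counting is not stated, and only 3 of the 9 EVPL values were whole reads within 0.2, so EVPL's level is less certain than those of the other plakins. The feature that joins CDK3 with TEN1 was at 3.54, 5.14 and 4.93 FPKM on average in the same groups, a log2 fold change of 0.50 over both siRNAs (adjusted p = 0.0014).

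The pair of envelope plakins therefore stood in different proportions in the 3 groups. The PPL level was 0.0668 ± 0.0149 of the EVPL level with scrambled siRNA (SD, n = 3), 0.672 ± 0.027 with K#1 and 0.314 ± 0.0316 with K#2. EVPL remained the more abundant of the pair in each of the 9 libraries.

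**Figure D1:**
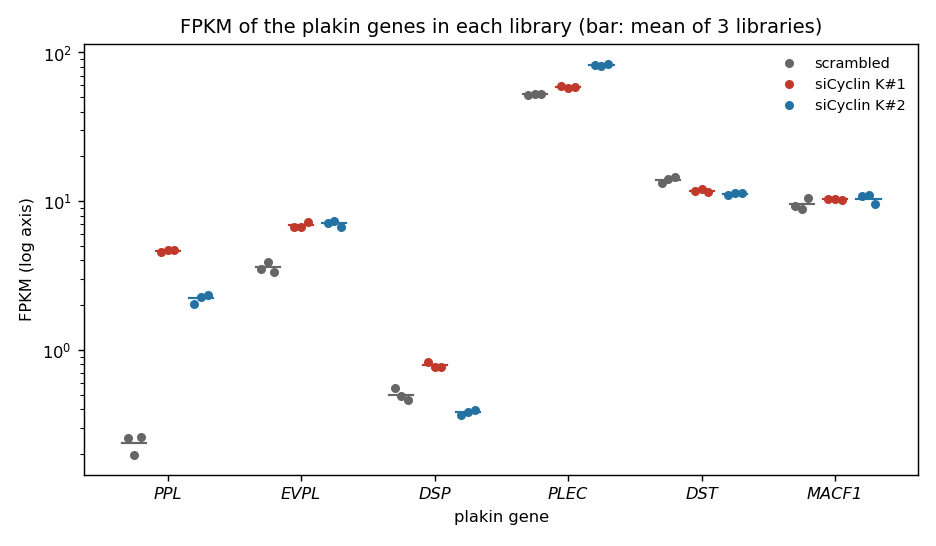
FPKM of each plakin gene on a log axis, with 1 point for each of the 9 libraries and a bar at the mean of 3 libraries (grey scrambled, red K#1, blue K#2). PPL moves from the lowest place, at 0.196 to 0.261 FPKM, to above DSP with both siRNAs, while DST is the gene whose Cyclin K libraries all lie below the scrambled ones.

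The order of the levels changed at its lower end only. With scrambled siRNA it ran from PLEC at 52.3 ± 0.747 FPKM (SD, n = 3) through DST at 13.9 ± 0.580, MACF1 at 9.52 ± 0.860, EVPL at 3.59 ± 0.302 and DSP at 0.499 ± 0.0477 to PPL. With either Cyclin K siRNA, PPL stood above DSP and the rest kept their places. Neighbours in this order did not overlap between libraries in any group. The order and the shares that follow hold for FPKM on joined exon lengths. PLEC made up 65.3% of the summed FPKM of the 6 genes with scrambled siRNA, 63.0% with K#1 and 72.5% with K#2, and the sum was 80.1 ± 1.61, 93.0 ± 1.05 and 114 ± 0.653 FPKM (SD, n = 3). PPL gave 0.296%, 4.99% and 1.95% of it.

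DSP, which encodes the desmosomal plakin, changed with K#1 and not past the threshold with K#2. The scrambled libraries had 0.552, 0.488 and 0.458 FPKM, from 150 to 188 reads. With K#1 the libraries had 0.833, 0.772 and 0.764 FPKM, and with K#2 they had 0.367, 0.382 and 0.392 FPKM. The K#1 libraries were thus all above the scrambled ones and the K#2 libraries all below. The log2 fold change was 0.57 with K#1 (adjusted p = 0.0064 from limma) and -0.32 with K#2 (adjusted p = 0.095). The siRNAs differed by 0.89 for DSP (95% interval 0.59 to 1.19, adjusted p = 0.001). Over both siRNAs together the log2 fold change was 0.13, with an interval of -0.50 to 0.76 (adjusted p = 0.78, exact permutation p = 0.631). DSP was measured on 119 to 272 reads per library, and with a pseudocount of 1 its change with K#1 was 0.26 and the difference between the siRNAs 0.37, both past the threshold.

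DST was the plakin that fell with both siRNAs. The gene is known for its long neuronal, muscle and epithelial forms, which the summed FPKM does not separate. It spans 496.6 kb of the minus strand of chromosome 6, from 56457987 to 56954628, with 35 annotated transcripts. The scrambled libraries had 13.3, 14.1 and 14.4 FPKM. With K#1 they had 11.7, 12.1 and 11.5 FPKM, and with K#2 11, 11.3 and 11.3 FPKM. The 6 Cyclin K libraries were all below the 3 scrambled ones. The log2 fold change was -0.24 with K#1 (adjusted p = 0.0017 from limma), -0.32 with K#2 (adjusted p = 0.00052) and -0.28 over both (adjusted p = 0.0059, exact permutation p = 0.0119). The difference between the siRNAs was 0.07, with an interval of -0.03 to 0.17 (adjusted p = 0.26), though each K#1 library was above each K#2 library.

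MACF1, the other spectraplakin, was not called in any comparison. It spans 405.9 kb of the plus strand of chromosome 1, from 39081316 to 39487177. The scrambled libraries had 9.27, 8.81 and 10.5 FPKM, those with K#1 10.4, 10.4 and 10.2 FPKM, and those with K#2 10.8, 10.9 and 9.51 FPKM. The groups overlapped. The log2 fold change over both siRNAs was 0.12, with a 95% interval of -0.04 to 0.29 (adjusted p = 0.26 from limma, exact permutation p = 0.107). With K#1 it was 0.12, and -0.002 after median-ratio rescaling of the libraries. DST stood at 1.47 ± 0.113 times MACF1 with scrambled siRNA (SD, n = 3), 1.14 ± 0.019 times with K#1 and 1.08 ± 0.0926 times with K#2. These ratios between genes rest on the joined exon lengths.

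Promoter sequences, from 250 bases before to 50 bases after a start site, were taken from RefSeq (GRCh38.p14). They are shown for 3 plakins, as sequence context for genes that moved and one that was not called. The FPKM do not show which start sites were used. DSP has 1 such window and DST and MACF1 have 3 each. PPL and EVPL had no entry, and no PLEC window is shown. The windows were searched on both strands for the GC box GGGCGG, the AP-1 motif TGANTCA and the TATA box TATAAA. These motifs were chosen after the sequences had been read. Of 35116 promoters in the same table, 45.0% hold the GC box, 7.71% the AP-1 motif and 11.5% the TATA box. Capitals mark the 8 GC boxes of the DSP window, of which the 3 in the first run touch or share a base, and the AP-1 motif of the first DST and the second MACF1 window, which overlaps no GC box. The DST motif begins at base 26 and the MACF1 motif at base 8 after the start site.
DSP, chr6:7541421-7541720, plus strand: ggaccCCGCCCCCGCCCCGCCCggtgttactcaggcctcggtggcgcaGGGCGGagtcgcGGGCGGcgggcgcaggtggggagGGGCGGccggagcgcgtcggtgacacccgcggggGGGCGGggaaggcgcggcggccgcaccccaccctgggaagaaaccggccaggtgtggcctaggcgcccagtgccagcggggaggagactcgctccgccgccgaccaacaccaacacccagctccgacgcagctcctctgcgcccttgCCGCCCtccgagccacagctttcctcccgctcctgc
DST, chr6:56954781-56955080, minus strand: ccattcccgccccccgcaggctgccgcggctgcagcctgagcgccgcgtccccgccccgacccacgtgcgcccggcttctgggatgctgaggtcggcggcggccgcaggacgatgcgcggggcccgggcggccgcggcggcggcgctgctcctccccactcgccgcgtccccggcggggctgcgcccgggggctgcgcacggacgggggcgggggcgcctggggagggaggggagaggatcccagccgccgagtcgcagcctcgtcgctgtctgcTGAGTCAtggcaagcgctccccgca
MACF1, chr1:39204445-39204744, plus strand: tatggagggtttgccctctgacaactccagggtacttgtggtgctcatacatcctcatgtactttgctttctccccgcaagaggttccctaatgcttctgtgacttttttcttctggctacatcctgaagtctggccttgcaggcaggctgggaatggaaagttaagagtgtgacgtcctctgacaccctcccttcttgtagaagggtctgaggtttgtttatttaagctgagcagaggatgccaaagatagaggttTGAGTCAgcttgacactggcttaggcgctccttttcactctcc
The AP-1 letters thus stand in windows of a plakin that fell and of one that was not called, and the DSP window holds none. GC boxes number 4 in the first DST window, 6 in the third MACF1 window and 0 in the other 4 windows, and the TATA box stands in the first MACF1 window only. A match of letters is a description and no evidence of binding.

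The first DST window lies between DST and BEND6, which starts at 56955126 on the plus strand, 497 bases from the end of DST. BEND6 had 0.880 to 0.961 FPKM with scrambled siRNA, 0.637 to 0.744 with K#1 and 0.588 to 0.677 with K#2, a log2 fold change of -0.42 over both siRNAs (adjusted p = 0.031 from limma). KIAA1586, the other tested protein-coding gene within 100 kb of DST, was at -0.25 (adjusted p = 0.039). Both protein-coding genes were called lower, as DST was, and 11.5% of all genes tested were lower in this comparison. RNU6-626P, annotated as a small nuclear RNA inside DST, was at 0 to 0.288 FPKM and was not called (-0.64, adjusted p = 0.5). At so low a level its change cannot be set against theirs. These genes were picked by position, and are named after their values were seen.

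DST and MACF1 are long genes, so the genes of their length are set beside them. Features that join several genes, or have no match in GENCODE 29, have no span and were left out. Of the 10333 genes that remained with a mean of 1 FPKM or more, the 417 that span over 250 kb had a median log2 fold change of 0.38 over both siRNAs, with 49.6% higher and 6.24% lower at an adjusted p under 0.05. DST was among the 26 lower ones and MACF1 among those not called. The 6757 genes under 50 kb, EVPL among them, had a median of 0.00, with 21.3% higher and 19.1% lower. Of the 1759 genes of 50 to 100 kb, the class of PPL and PLEC, 26.6% were higher and 15.5% lower. DSP was below the level needed for this count.

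**Figure D2:**
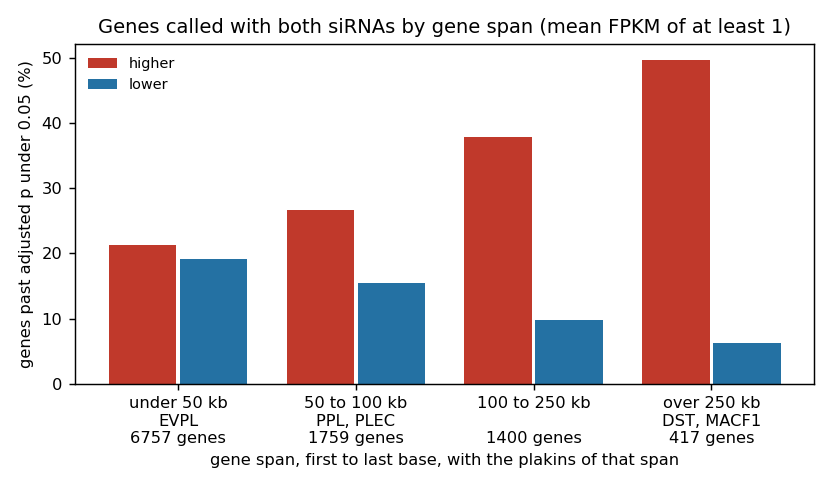
Percentage of genes higher (red) and lower (blue) with both siRNAs at an adjusted p under 0.05, by gene span, for the 10333 genes above. The higher share goes from 21.3% under 50 kb to 49.6% over 250 kb, the class that holds DST and MACF1.

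PLEC, the most abundant plakin, rose with each siRNA and more with K#2. Its product links keratin filaments to integrins and to actin. It spans 61.6 kb of the minus strand of chromosome 8, from 143915147 to 143976734, and was measured on 28649 to 45849 reads per library. The scrambled libraries had 51.5, 52.9 and 52.6 FPKM, those with K#1 59.9, 57.3 and 58.5 FPKM, and those with K#2 81.9, 81.2 and 84.2 FPKM. The 3 groups did not overlap. The log2 fold change was 0.65 with K#2 (adjusted p = 8.6e-07 from limma) and 0.16 with K#1 (adjusted p = 0.0018). After median-ratio rescaling of the libraries the change with K#1 was 0.04 (adjusted p = 0.35), so that call rests on the scaling. The siRNAs differed by -0.49 for PLEC (95% interval -0.56 to -0.43, adjusted p = 6.3e-06), the opposite direction to PPL and DSP. Over both siRNAs as one group the change was 0.41 (adjusted p = 0.059, exact permutation p = 0.0238), and 5 of 19 alternatives passed the threshold. These were leaving out K#1 replicate 2 (0.46, adjusted p = 0.036) or K#1 replicate 3 (0.46, adjusted p = 0.043), quantile normalization (0.46, adjusted p = 0.017), a mean of 1 FPKM or more (0.41, adjusted p = 0.045) and a fit of 3 groups (0.41, adjusted p = 2.8e-06). PARP10, which lies 418 bases beyond the 5′ end of PLEC, was at 1.93 ± 0.242 FPKM with scrambled siRNA and 1.08 ± 0.0924 with K#2 (SD, n = 3), a log2 fold change of -0.79 (adjusted p = 0.00064). With K#1 its change was -0.23 (adjusted p = 0.13) and over both siRNAs -0.51 (adjusted p = 0.073). Of 6 tested protein-coding genes within 100 kb of PLEC, SCRIB (0.77, adjusted p = 1.1e-05) and OPLAH (0.44, adjusted p = 0.041) were higher over both siRNAs and GRINA (-0.87, adjusted p = 0.00026) lower, and these genes are named after their values were seen. Among all genes tested, 17.0% were higher and 11.5% lower in this comparison.

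**Figure D3:**
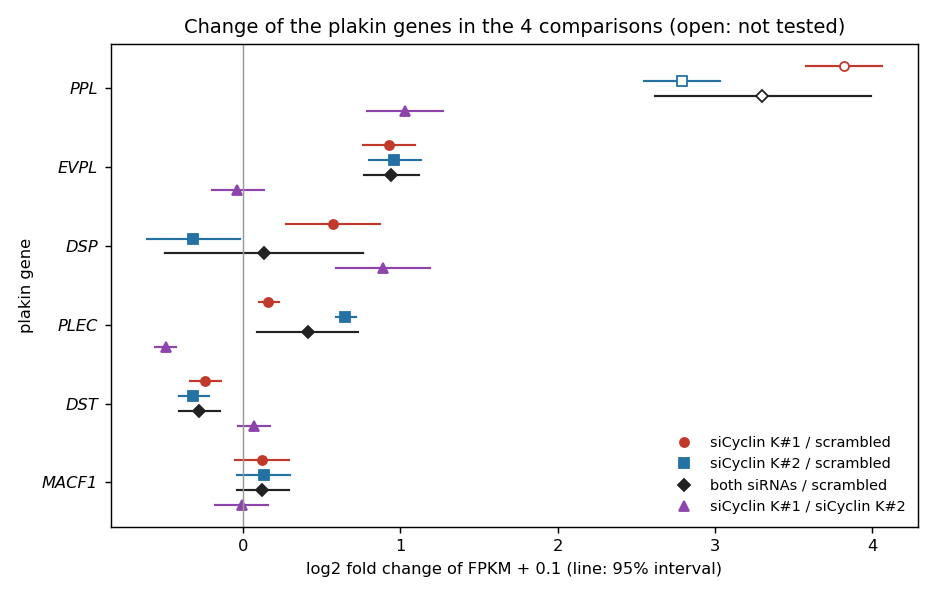
Log2 fold change of FPKM + 0.1 for each plakin in the 4 comparisons, with lines for the 95% interval of the limma fit and open marks where PPL was not tested. The siRNA against siRNA values (purple) lie at 1.03 for PPL, 0.89 for DSP and -0.49 for PLEC, and their intervals cross 0 for EVPL, DST and MACF1.

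Counted over the members other than PPL, 1 of 5 was higher (EVPL) and 1 lower (DST) with both siRNAs at an adjusted p under 0.05, while 17.0% of the 21048 genes tested were higher and 11.5% lower. With K#1, 3 of 5 were higher (EVPL, DSP and PLEC) and 1 lower (DST), against 26.8% and 18.1% of all genes. With K#2, 2 of 5 were higher (EVPL and PLEC) and 1 lower (DST), against 19.8% and 15.2%. Between the siRNAs, 2 of 6 were higher with K#1 (PPL and DSP) and 1 lower (PLEC), against 17.1% and 12.3%. The threshold in the study's methods is a fold change over 3 with p under 0.01, while its results text names a lower fold. At that threshold of the methods, 0 of 5 members other than PPL were called against scrambled siRNA and 0 of 6 between the siRNAs. Of all genes, 2.29% passed it with both siRNAs, 4.67% with K#1, 1.94% with K#2 and 1.53% between the siRNAs. The comparisons of the siRNAs with scrambled share the scrambled libraries. The median log2 fold change of all genes was 0.06, 0.10 and 0.01 for both siRNAs, K#1 and K#2, and quantile normalization moved that for K#1 by -0.12.

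Of the other plakin genes, EPPK1 (epiplakin) was at 0 to 0.0386 FPKM and was not tested, and EVPLL was not analysed here. Periplakin and envoplakin are best known for the cornified envelope. Of the 18 genes on this list 8 had a value and 6 were tested, and 1 was higher (ANXA1), 1 lower (S100A10) and 4 not called with both siRNAs, with a median log2 fold change of 0.09. Among all genes tested, 17.0% were higher and 11.5% lower in this comparison. ANXA1, a membrane-binding protein of the annexin family, went from 44.3 to 44.5 FPKM with scrambled siRNA to 142 to 145 with K#1 and 106 to 112 with K#2. Its log2 fold change was 1.49 over both siRNAs (adjusted p = 1.8e-05 from limma). S100A10, the partner of another annexin, fell by 0.60 on the log2 scale (adjusted p = 0.0041). S100A11 was at 0.18 (adjusted p = 0.07) and CNFN at 0.46 (adjusted p = 0.28). Filaggrin, FLG, was at a mean of at most 0.0199 FPKM in each group.

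Of the 13 desmosome genes 7 were tested, 4 were higher with both siRNAs and 0 lower, and the median was 0.61. Among all genes tested, 17.0% were higher and 11.5% lower. PERP, a membrane protein of desmosomes, had 11.9 to 12.3 FPKM with scrambled siRNA, 73.6 to 75.1 with K#1 and 56.5 to 59.4 with K#2, a log2 fold change of 2.43 (adjusted p = 7.4e-07 from limma). The plakophilins PKP3 and PKP2, which bind desmoplakin, were at 0.63 (adjusted p = 0.012) and 0.57 (adjusted p = 0.0011). DSG2, the desmosomal cadherin, had 16.5 to 17.4, 32.5 to 33.9 and 19.8 to 20.4 FPKM in the same groups, 0.61 over both siRNAs (adjusted p = 0.049). DSG2 was, as DSP was, higher with K#1 than with K#2 when tested directly, by 0.72 (adjusted p = 2.0e-06). PKP3 went the other way, at -0.46 (adjusted p = 0.0045), and between the siRNAs 4 genes of the list were higher with K#1 and 2 lower. Of all genes tested, 17.1% were higher and 12.3% lower between the siRNAs. JUP, which binds desmoplakin too, was at 7.67 ± 2.44 FPKM with scrambled siRNA, 21.5 ± 1.02 with K#1 and 8.09 ± 0.669 with K#2 (SD, n = 3), with 0.83 over both siRNAs (adjusted p = 0.18), and is named after its values were seen.

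The 7 hemidesmosome genes, partners of plectin and dystonin, were all tested, and 1 was higher with both siRNAs and 1 lower, with a median of -0.03. Over all genes tested the shares were 17.0% higher and 11.5% lower. ITGB4, the integrin subunit to which plectin binds, had 3.14 to 3.52 FPKM with scrambled siRNA, 14.4 to 15.1 with K#1 and 7.96 to 9.43 with K#2. Its log2 fold change was 1.73 (adjusted p = 0.00035 from limma). Its partner ITGA6 was at -0.12 (adjusted p = 0.65), and CD151 at -0.02 (adjusted p = 0.91).

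Of the 11 intermediate filament genes 6 were tested, and 2 were higher (KRT8 and LMNA) and 0 lower with both siRNAs, with a median of 0.08. KRT8 had 49.7 to 65.4, 80.6 to 105 and 93.7 to 101 FPKM with scrambled siRNA, K#1 and K#2, and a log2 fold change of 0.80 (adjusted p = 0.00038 from limma). LMNA, which encodes the nuclear lamins, was at 0.69 (adjusted p = 8.6e-05). VIM, at -0.20 (adjusted p = 0.20), and KRT81, at -0.59 (adjusted p = 0.061) in a feature that joins it with KRT85, did not pass the threshold. Of the 7 tested genes whose products bind periplakin, a list that shares KRT8, KRT18 and VIM with the one before and holds PLEC, 3 were higher and 0 lower. These were KRT8, AKT1, at 0.57 (adjusted p = 0.027), and KAZN, whose product kazrin is found at desmosomes, at 0.66 (adjusted p = 0.022). KRT18 was at -0.03 (adjusted p = 0.87). KAZN is named after its values were seen, and the list had a median of 0.41. For this list and the one before, the shares over all genes tested were 17.0% higher and 11.5% lower.

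On a list of 11 genes, most of them of microtubule ends, which spectraplakins bind, 1 was higher with both siRNAs and 0 lower, with a median of 0.08. ERBIN and GOLGA4, also on this list, are not genes of microtubule ends, so the count and median are those of a mixed list. CLIP1 had 3.11 to 3.28, 9.69 to 10.6 and 9.03 to 9.60 FPKM in the 3 groups, a log2 fold change of 1.56 (adjusted p = 8.8e-07 from limma). MAPRE1, whose product EB1 binds growing ends, was at 0.16 (adjusted p = 0.62), ERBIN at 0.29 (adjusted p = 0.17) and GOLGA4 at -0.48 (adjusted p = 0.53). MAPRE1 was lower with K#1 than with K#2, by 0.76 on the log2 scale (adjusted p = 5.3e-07). Of the 15 genes that share spectrin repeats with the spectraplakins 11 were tested, 5 were higher and 0 lower with both siRNAs, and the median was 0.62. That median is the value of SYNE3, which was at 0.0345 to 0.0728 FPKM with scrambled siRNA and was not called. SYNE3 and SPTBN4 passed the filter on low values only through the Cyclin K libraries, which favours a higher median and count. For both lists, the shares over all genes tested were 17.0% higher and 11.5% lower. SYNE2, a nuclear envelope linker, was at 0.75 (adjusted p = 0.0004), SPTAN1, which encodes alpha-spectrin, at 0.67 (adjusted p = 0.00081) and ACTN1, an alpha-actinin in a feature joined with a pseudogene, at 0.22 (adjusted p = 0.024). ACTN4 was at 0.12 (adjusted p = 0.37). SPTBN4, also called higher, had a mean of 0.0925 FPKM with scrambled siRNA and 0.459 over all libraries. SPTBN4 and SYNE3 are named after their values were seen.

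**Figure D4:**
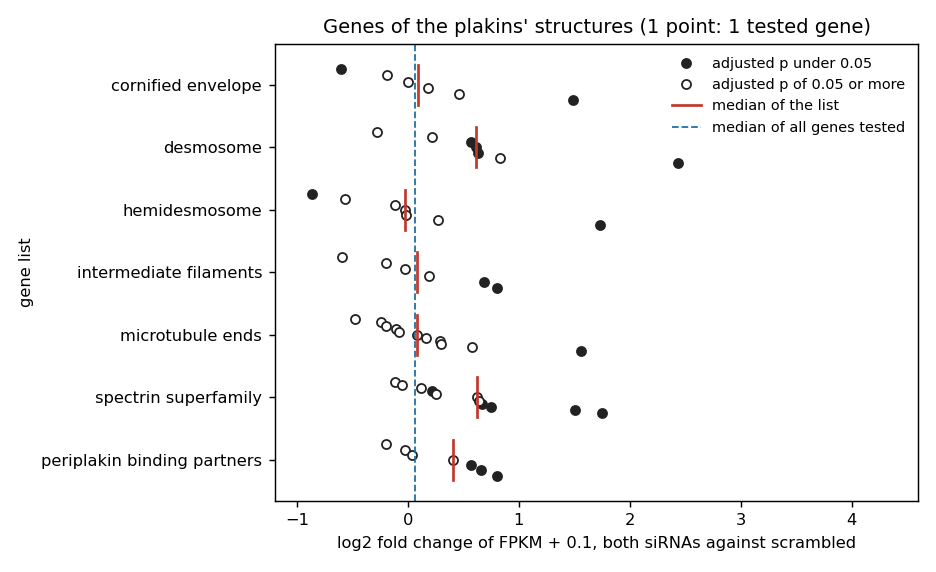
Log2 fold change over both siRNAs of the tested genes of 7 lists, with filled points at an adjusted p under 0.05, a red bar at the median of the list and a dashed line at the median of all genes tested, 0.06. The desmosome and spectrin lists have medians of 0.61 and 0.62, and the hemidesmosome list one of -0.03. The spectrin median is that of SYNE3, which passed the filter on low values only through the Cyclin K libraries.

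PPL has 9 protein-coding neighbours within 100 kb, of which SEC14L5 and ALG1 share one joined feature, and 5 features were tested. UBN1, on the plus strand, ends 146 bases from the 3′ end of PPL, so that the genes run towards each other. It had 3.06 to 3.61 FPKM with scrambled siRNA, 5.59 to 8.68 with K#1 and 3.87 to 5.10 with K#2. UBN1 was the neighbour called higher over both siRNAs as one group, at 0.69 (adjusted p = 0.045 from limma), where 17.0% of all genes tested were higher. With K#1 its change was 1.01 (adjusted p = 0.001), and with K#2 it was 0.38 and not called (adjusted p = 0.12). It was also higher with K#1 than with K#2, by 0.63 (adjusted p = 0.02). Without a stated strand setting, reads past the end of either gene cannot be told apart. GLYR1 had 11.7 to 12.5, 8.59 to 8.94 and 14.4 to 15.0 FPKM in the 3 groups, which is lower with K#1 (-0.44, adjusted p = 3.1e-05) and higher with K#2 (0.29, adjusted p = 0.00059). ROGDI was at 0.19 over both siRNAs (adjusted p = 0.49) and NAGPA at 0.30 (adjusted p = 0.30). The feature that joins SEC14L5, ALG1 and NAGPA-AS1 overlaps the 5′ end of PPL by 2425 bases on the other strand and was at 2.18, 2.41 and 2.91 FPKM on average, 0.27 over both siRNAs (adjusted p = 0.12). SEPT12, SMIM22 and C16orf89 were at or below 0.0877 FPKM in each library and were not tested.

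**Figure D5:**
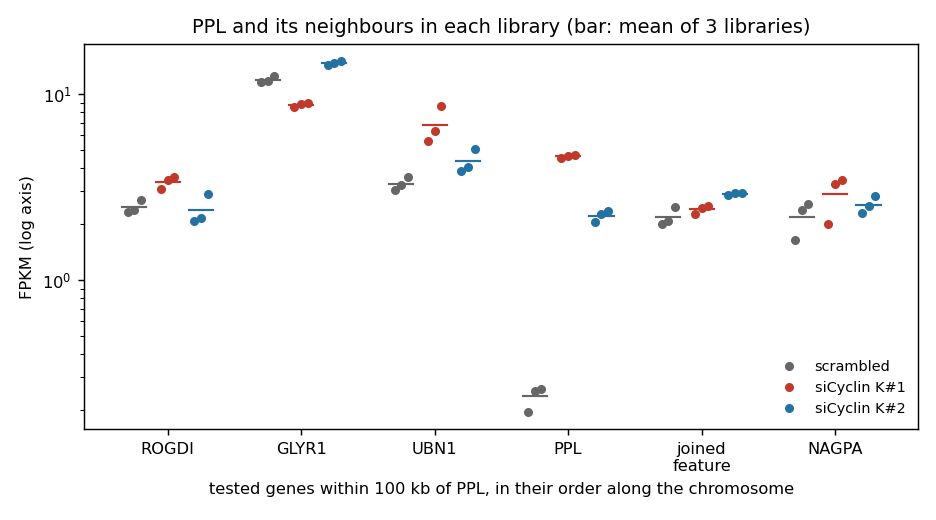
FPKM on a log axis of PPL and the tested features within 100 kb of it, 1 point for each library and a bar at the mean of 3, in their order along the chromosome. The joined feature holds SEC14L5, ALG1 and NAGPA-AS1, and PPL stands between UBN1 and this feature.

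The genes whose pattern over the 9 libraries was most like that of PPL were ZNF469, PALM3, MMP24, TPM4 and TRIML2. Likeness was the distance between log2 values centred on the scrambled mean, among the 11242 genes whose FPKM averaged at least 1, so these genes share the size of the rise that chose PPL. Their distances were 1.04 to 1.14. ZNF469, a zinc finger gene, had 0.191 to 0.231 FPKM with scrambled siRNA, 4.73 to 5.15 with K#1 and 1.31 to 1.47 with K#2. PALM3, a paralemmin gene, had 0.0365 to 0.105, 2.06 to 2.42 and 0.657 to 1.07 FPKM. MMP24, a membrane-type metalloproteinase gene, had 1.46 to 1.80, 32.3 to 33.9 and 8.48 to 9 FPKM. TPM4, a tropomyosin gene, had 6.97 to 7.84, 62.4 to 122 and 43.6 to 75.0 FPKM, with overlap between the siRNAs. TRIML2 had 0.788 to 0.937, 13.5 to 15.0 and 9.96 to 10.4 FPKM. In ZNF469, PALM3, MMP24 and TRIML2, as in PPL, each K#1 library was above each K#2 library, an order that the choice by likeness favours. Of the plakins with a mean FPKM of at least 1, EVPL was the 917th most like PPL, PLEC the 3172nd, MACF1 the 4960th and DST the 8277th.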

How the data were processed

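RNA of the 9 libraries was sequenced in pairs on an Illumina HiSeq X, and the authors deposited FPKM per feature, made with StringTie 1.3.3b. The aligner, filters and annotation release are not given in the sources used here. The coordinates of the 6 plakin genes equal those of GENCODE 29 (GRCh38), whose exon lengths turned low FPKM values into reads. The labels gave groups and replicate numbers.

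After summing the rows of one gene, those that reached an FPKM of 0.1 in 3 or more libraries (21048) were fitted with limma 3.58.1 in R 4.3.3 (lmFit, eBayes with trend) on log2(FPKM + 0.1). Both siRNAs against scrambled were 2 groups, and the other comparisons came from 3 groups with a shared spread. P-values were adjusted by Benjamini-Hochberg over all genes tested and called under 0.05. Single members had an exact two-sided permutation test (scipy 1.17.1). The fit was tested on simulated data.

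The members, gene lists and tests were chosen with earlier results of these data known. From each list at most 4 genes are named, those called with the largest change and a mean FPKM of at least 1, then the most abundant. Some list genes that were counted are not reported here by name. Also named are the genes within 100 kb of PPL and the 5 most like it, chosen with PPL's rise in view. Alternatives were pseudocounts, filters, rescaling, a replicate block, eBayes without trend, leaving out libraries, and the threshold in the study's methods. Libraries that share a number did not vary together (mean r -0.0058 over 9 pairs and 11243 genes).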

Additional observations from a re-analysis of the deposited data

Results flagged for a closer look

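For 3 plakins the direct test between the siRNAs, which uses no scrambled library, passed the threshold. As K#1 minus K#2, the log2 difference was 1.03 for PPL, 0.89 for DSP and -0.49 for PLEC (adjusted p = 0.00014, 0.001 and 6.3e-06 from limma), with no overlap between the 3 libraries of each siRNA. DST had no overlap between the siRNAs either, and its difference of 0.07 did not pass the threshold (adjusted p = 0.26 from limma). The reason for these differences was not tested. Groups of 3 libraries are too small to look for a single library that stands apart.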

How the results depend on the processing

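At a fold change over 3 with p under 0.01, 0 plakins other than PPL were called in each of the 3 comparisons with scrambled siRNA and 0 of 6 between the siRNAs. Over the other alternatives the count of calls ranged from 2 to 3 with both siRNAs, 3 to 4 with K#1, 3 to 4 with K#2 and 2 to 3 between them, and leaving out 1 library gave 2 to 3 with both siRNAs and the reported 4, 3 and 3 elsewhere. The cause was not tested, except that a mean FPKM of at least 1 left DSP out.

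Of 434 values of single members under alternatives, 415 kept their direction and side of the threshold, and so did 6 more, all of PPL, whose size moved with the pseudocount. These counts include PPL against scrambled siRNA. There, staying past the threshold was favoured by the choice of PPL for its rise and is no support for it. The PPL change over both siRNAs was 2.34 and 1.78 with pseudocounts of 0.5 and 1. DSP with K#2 was called without the variance trend (-0.32, adjusted p = 0.014). Signs turned only for values near 0. MACF1 with K#1 was -0.002 after median-ratio rescaling, the DST difference between the siRNAs -0.001 after it, and the MACF1 difference 0.014 after quantile normalization and -0.071 to 0.028 when 1 library was left out (0.003, 0.018 and 0.028 for the 3 that turned its sign). Replicate numbers did not pair the libraries, and with a replicate block the counts were 2, 4, 3 and 3 as without it.

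Depth limits DSP and PPL most, at 48 to 272 reads in the libraries where they are low.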
